A study of Mus musculus with 18 samples.

Results

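Chaperones and protein folding enzymes were followed here by gene symbol in mouse kidney: the heat shock proteins (Hsp), their DnaJ partners (Dnaj), subunits 2 to 8 of the cytosolic chaperonin (Cct), the protein disulfide isomerases (Pdia) and the FK506-binding prolyl isomerases (Fkbp). The symbols matched 105 probes of 57 genes, and 55 genes (103 probes) were read on 9 or more of the 18 arrays, out of 6231 such genes in the whole data set. Dnajc25 with 8 arrays and Dnajc14 with 1 array were left out, and Hspb8 with 9 arrays and Dnajc5 with 11 arrays were the sparsest of those kept. By symbol the 55 genes comprised 11 cytosolic heat shock genes, 6 chaperonin subunits, 12 genes of the endoplasmic reticulum, 6 mitochondrial genes, 14 other DnaJ genes and 6 other FKBP genes.

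Newly made proteins fold with the help of chaperones that bind exposed hydrophobic stretches and release them in cycles driven by ATP. In the cytosol, Hsp70 proteins receive clients from DnaJ cochaperones and pass some of them to Hsp90 or to the chaperonin ring, which folds actin and tubulin. In the endoplasmic reticulum, the Hsp70 protein BiP (Hspa5), the Hsp90 protein Grp94 (Hsp90b1) and disulfide isomerases fold secreted and membrane proteins, and their genes are targets of the unfolded protein response. Oxygen is the final electron acceptor of oxidative disulfide formation, and proximal tubule cells depend on respiration, so both sites of folding are of interest in a hypoxic kidney.

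Kidneys came from CD1 mice, an outbred stock, whose litters were divided at postnatal day 2 among 9 groups. For 1, 2 or 4 weeks the pups breathed normal air (normoxia), a steady 11% oxygen (constant hypoxia) or oxygen that switched between 21% and 11% every 4 min (intermittent hypoxia), so age and time in the condition rose together. Each group had 2 arrays, called A and B, and each cDNA array carried kidney cDNA of 1 male in Cy5 and of 1 female in Cy3 from the same condition, with no dye swap. Every array thus held other animals, and p-values measure the spread between arrays. The deposited value was the log2 ratio of both channels, so a change shared by the paired animals cancels, and only a change of the ratio between them can be seen.

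Each array was centred on its median over the 9675 features with enough values, and every ratio below is a centred log2 ratio. The sources used here do not name the numerator channel. Eif2s3y, a Y-linked gene, was positive on 11 arrays and negative on 7, from -2.19 to 1.63. Signs therefore carry no statement about sex. Means, differences and shared signs below assume the same orientation of the ratio on all arrays, which was not tested. The constant hypoxia arrays had been deposited on another footing, with medians from -1.17 to -0.15 against -0.07 to 0.09 on the normoxia and -0.03 to 0.03 on the intermittent hypoxia arrays, and with values for 81.8% to 88.8% of probes against 41.0% to 67.9% and 42.9% to 65.7%. Constant hypoxia and this footing cannot be told apart. On the values as deposited all 52 members tested were below 0 for constant hypoxia minus normoxia and all 49 above 0 for intermittent minus constant hypoxia, so the signs given below for these comparisons are relative to the median feature. Ratios spread most widely on constant hypoxia 4 weeks A (SD 0.87) and next on array B of intermittent hypoxia at 2 weeks (SD 0.75), against 0.27 to 0.51 on the other arrays. For intermittent hypoxia 2 weeks A and constant hypoxia 4 weeks A one label gives a different duration from the title. Of 14 kidney markers, Calb1, Cubn, Lrp2 and Miox had values, with array medians from -0.36 to 0.38; a ratio does not show their level, and so does not test the tissue. Erythroid markers (3 of 7 with values) had array medians from -1.23 to 0.29, and Lyz2, the 1 immune marker of 6 with values, lay between -1.05 and 1.00.

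Heat shock factors and the transcription factors of the unfolded protein response bind known promoter elements, and some members carry their letters. RefSeq windows on GRCm38.p6, from 250 bases before to 50 bases after a gene's start, were at hand for 46 of the 55 genes. The endoplasmic reticulum stress response element, searched as CCAAT and CCACG with 9 bases between them on both strands, was found in 4 of the 46 genes (8.7%), namely Dnajc3, Hsp90b1, Hspa5 and Pdia6, against 0.137% of all 27025 genes with a window. The heat shock element, searched as GAA, TTC and GAA with 2 bases between neighbours, on both strands (on the other strand TTC, GAA and TTC), was found in 4 of 46 genes (8.7%), namely Dnajb6, Hspd1, Hspe1 and Hsph1, against 0.662% of all genes. Hspd1 and Hspe1 lie head to head, their windows overlap, and they hold the same match, so these are not independent occurrences. A match is a run of letters and not a measured binding site. The 250 bases before the start are shown 5′ to 3′ for 3 endoplasmic reticulum genes that share the first element, because their ratios are set side by side below, and for Hspe1 as an example of the second. Capitals mark the element; in Hsp90b1 it occurs on both strands, and in Hspe1 overlapping matches on both strands run together.
Hspa5 (chr2:34771840-34772089, plus strand): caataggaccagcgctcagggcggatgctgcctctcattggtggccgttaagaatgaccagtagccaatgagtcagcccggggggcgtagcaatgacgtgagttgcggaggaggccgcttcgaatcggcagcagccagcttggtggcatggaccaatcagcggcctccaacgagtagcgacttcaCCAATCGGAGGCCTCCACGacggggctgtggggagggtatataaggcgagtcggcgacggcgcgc
Hsp90b1 (chr10:86705445-86705694, minus strand): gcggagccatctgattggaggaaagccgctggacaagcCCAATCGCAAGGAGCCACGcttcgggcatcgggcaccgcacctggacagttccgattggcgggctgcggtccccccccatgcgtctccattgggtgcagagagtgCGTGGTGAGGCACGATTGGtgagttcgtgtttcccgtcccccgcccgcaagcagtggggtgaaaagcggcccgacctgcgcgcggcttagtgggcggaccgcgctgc
Pdia6 (chr12:17266339-17266588, plus strand): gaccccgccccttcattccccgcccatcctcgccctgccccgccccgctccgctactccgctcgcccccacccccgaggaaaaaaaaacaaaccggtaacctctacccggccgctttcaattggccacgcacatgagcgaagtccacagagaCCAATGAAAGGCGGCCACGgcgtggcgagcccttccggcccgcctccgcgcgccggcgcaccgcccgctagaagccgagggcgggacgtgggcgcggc
Hspe1 (chr1:55087898-55088147, plus strand): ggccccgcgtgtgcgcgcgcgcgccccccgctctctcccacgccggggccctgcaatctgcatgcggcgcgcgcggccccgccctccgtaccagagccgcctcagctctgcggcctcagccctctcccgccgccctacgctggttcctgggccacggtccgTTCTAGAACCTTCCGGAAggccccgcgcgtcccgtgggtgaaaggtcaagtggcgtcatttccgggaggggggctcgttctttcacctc

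The ratios of the folding genes lay close to 0 on most arrays. Their median SD over arrays was 0.321, against 0.326 over all features. Dnajc10, a disulfide reductase of the endoplasmic reticulum with a DnaJ domain, was the one member below 0 on every array with a value, here all 18. Of the 9675 features, 131 were below 0 on every array with a value, which can be as few as 9 arrays. No member was above 0 on every array with a value. Without a dye swap, a shared sign cannot be told apart from a dye bias, a channel effect of the probe itself. Dnajc10 read -0.64 to -0.29 in normoxia (median -0.47, n = 6 arrays), -1.62 to -0.16 in constant hypoxia (median -0.62) and -0.58 to -0.07 in intermittent hypoxia (median -0.24). Its lowest value came from constant hypoxia 4 weeks A, and its 2 probes had constant hypoxia means of -0.39 and -0.93.

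**Figure D1:**
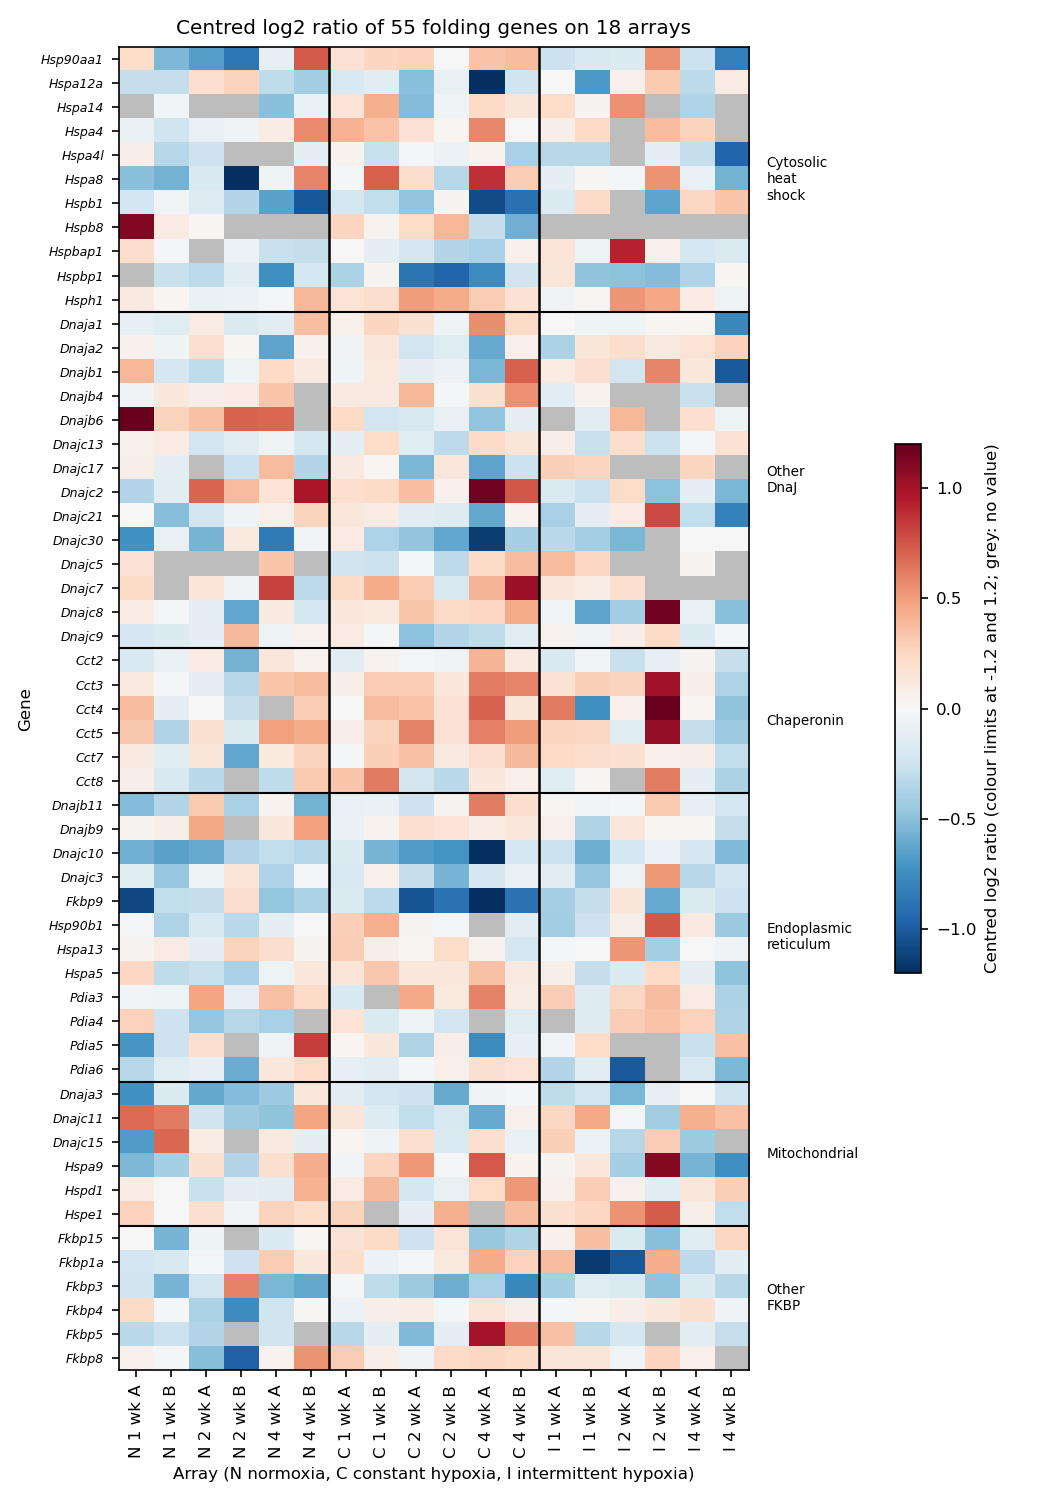
Centred log2 ratio of the 55 folding genes (rows, grouped by class) on the 18 arrays (columns, grouped by condition), in colour with limits at -1.2 and 1.2 and grey where an array has no value. Dnajc10 is below 0 on every array, and the strongest colours stand on array A of constant hypoxia at 4 weeks and array B of intermittent hypoxia at 2 weeks.

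The mean ratio of each condition asks which genes differed between both channels, relative to the median feature. Without a dye swap, a difference between the paired animals and a dye bias cannot be told apart in these means. In normoxia, limma called 2 of 52 members at an adjusted p under 0.05 (background: 3.31% of features, 1.68% above 0 and 1.64% below), Hspb1 below 0 and Dnajb6 above 0. In constant hypoxia 10 of 55 members were called, 3 above 0 (Cct3, Hsph1 and Dnajc2) and 7 below 0 (Fkbp9, Hspb1, Dnajc10, Hspbp1, Fkbp3, Hspa12a and Dnajc30), where 14% of all features were called, 3.58% above and 10.4% below. In intermittent hypoxia 1 of 49 members was called, Pdia6 below 0 (background: 7.6%, 4.91% above 0 and 2.7% below). The members' share was of the order of the background in normoxia and constant hypoxia and below it in intermittent hypoxia.

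Calls in constant hypoxia depended on the processing and on single arrays. With a running median over neighbouring probe numbers removed from each array, 1 of the 10 was called, Hspb1, and the share of all features called fell with it, from 14% to 0.654%. In that setting the called means of Cct3 and Hsph1 were 0.061 and 0.061, those of Fkbp3 and Hspa12a -0.077 and -0.073, and those of Dnajc10, Hspbp1 and Dnajc2 -0.25, -0.24 and 0.42, with adjusted p from 0.0809 to 0.830. No member passed without constant hypoxia 1 week B (0.268% of features) or 2 weeks A (0.571%). Without 2 weeks B 1 passed (0.993% of features), without 1 week A 3 of 53 (4.37%) and without 4 weeks A 4 of 55 (6.1%), so members and features lost calls together. In normoxia no member was called with any of 12 of the 18 arrays left out, those being normoxia 1 week A, 2 weeks B and 4 weeks A and B, constant hypoxia 1 and 2 weeks A and B, and intermittent hypoxia 1 and 4 weeks A and B. In these fits 0.367% to 2.37% of features were called.

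Among the cytosolic heat shock genes, Hspb1, the small heat shock protein Hsp27 that holds unfolded proteins and stabilises actin, had the smallest p of the members for intermittent hypoxia minus normoxia at 4 weeks. In normoxia it read -0.23 and -0.03 at 1 week, -0.16 and -0.35 at 2 weeks and -0.64 and -1.01 at 4 weeks. In constant hypoxia it read -0.21 and -0.30, -0.48 and 0.03, and -1.07 and -0.90 at the same times. In intermittent hypoxia it read -0.17 and 0.23 at 1 week, -0.63 on 1 array at 2 weeks, and 0.25 and 0.33 at 4 weeks. All 4 arrays of normoxia and constant hypoxia at 4 weeks were thus below the array median by more than any 1-week array, and both intermittent arrays lay above it.

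The fitted mean of Hspb1 was -0.40 (SE 0.098, adjusted p = 0.0434) in normoxia and -0.49 (SE 0.098, adjusted p = 0.0135) in constant hypoxia. At 4 weeks intermittent hypoxia minus normoxia was 1.12 (SE 0.24), which did not pass adjustment over all features (limma, adjusted p = 0.277). The change from 1 to 4 weeks was -0.70 in normoxia (adjusted p = 0.332) and -0.73 in constant hypoxia (adjusted p = 0.503), and the difference of this change between intermittent hypoxia and normoxia was 0.96 (SE 0.34, adjusted p = 0.479). Hspb1 rested on 1 probe.

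Hspa8, the constitutive Hsp70 of the cytosol, read -0.50 and -0.57 at 1 week, -0.18 and -1.22 at 2 weeks, and -0.05 and 0.59 at 4 weeks of normoxia. In constant hypoxia the values were -0.02 and 0.71, 0.21 and -0.35, and 0.87 and 0.31. Of these, 5 normoxia arrays and 2 constant hypoxia arrays were below 0, and the ranges overlapped. Constant hypoxia minus normoxia was 0.61 (SE 0.22, adjusted p = 0.523; -0.19 on the values as deposited), and intermittent hypoxia minus normoxia was 0.29 (SE 0.22, adjusted p = 0.983). Constant hypoxia at 1 week and on 4 weeks A was read from 1 of its 3 probes. That probe had no value on normoxia 1 week A and 2 weeks B. Its means were 0.42 in constant hypoxia and 0.01 in normoxia. The other probes had means of 0.35 against -0.10 and of -0.49 against -0.59. The gene's difference thus rests in part on different probes.

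Hsp90aa1, the inducible cytosolic Hsp90, was between 0.00 and 0.37 on the constant hypoxia arrays (median 0.27, all above 0), between -0.86 and 0.73 in normoxia (median -0.32) and between -0.82 and 0.55 in intermittent hypoxia (median -0.22). Its 7 probes all gave a positive constant hypoxia minus normoxia difference, from 0.16 to 0.85, and the gene's difference was 0.44 (SE 0.19, adjusted p = 0.571), or -0.37 on the values as deposited. Hsph1, an Hsp110 exchange factor for Hsp70, was between 0.17 and 0.50 in constant hypoxia, with a fitted mean of 0.30 (SE 0.079, adjusted p = 0.0277), and between -0.08 and 0.40 in normoxia. Their difference was 0.24 (SE 0.11, adjusted p = 0.582). Hspa4, another Hsp110 protein, was above 0 on all 6 constant hypoxia arrays (0.01 to 0.58) and on the 4 intermittent hypoxia arrays with a value (0.07 to 0.38), and on 2 of 6 in normoxia.

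Hspbp1, which releases nucleotide from Hsp70, had a fitted mean of -0.53 in constant hypoxia (SE 0.12, adjusted p = 0.0163), with 5 of 6 arrays below 0. Its values in normoxia ran from -0.74 to -0.13 on 5 arrays, so the sign was shared, and the difference between both conditions was -0.21 (SE 0.18, adjusted p = 0.739). Hspa12a, a distant Hsp70 relative, had a constant hypoxia mean of -0.43 (adjusted p = 0.0493), to which constant hypoxia 4 weeks A contributed -1.42. The other 5 arrays lay between -0.50 and -0.09. On 4 weeks A its 2 probes read -0.21 and -2.63, and their constant hypoxia means were -0.17 and -0.69.

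**Figure D2:**
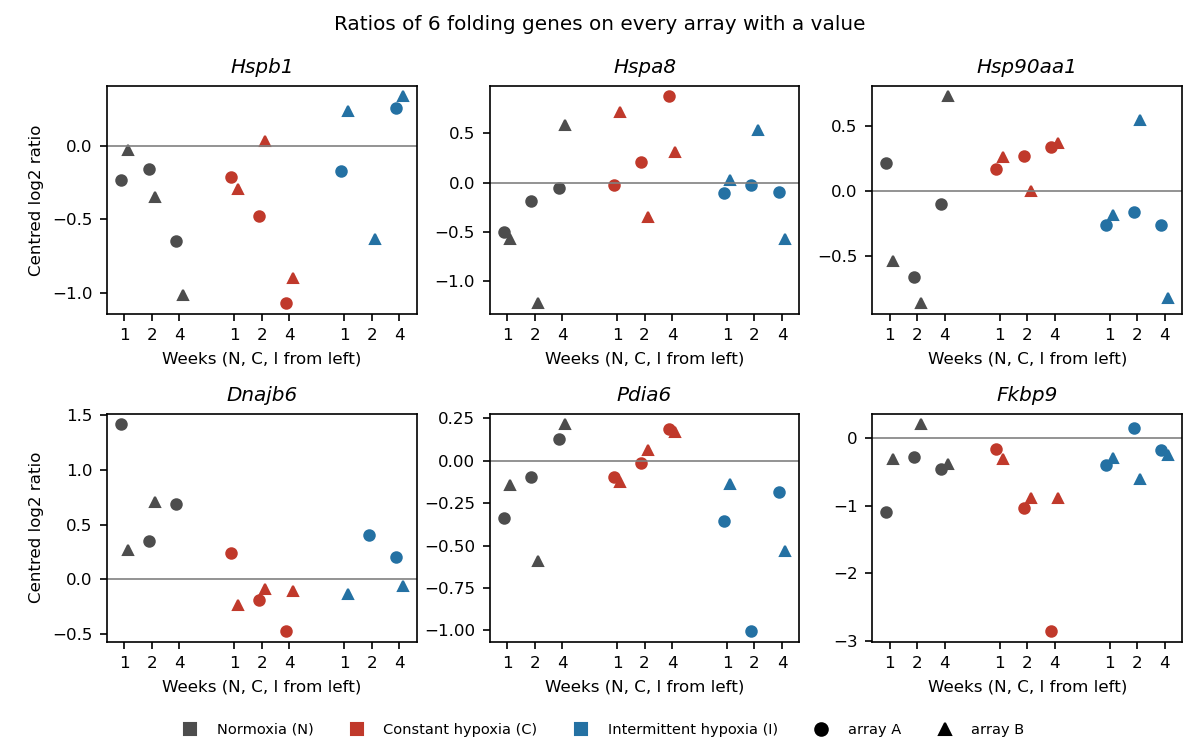
Centred log2 ratio (vertical axis) of Hspb1, Hspa8, Hsp90aa1, Dnajb6, Pdia6 and Fkbp9 on each array with a value, by condition and weeks, with circles for arrays A and triangles for arrays B. At 4 weeks the Hspb1 points are at -1.07 to -0.64 in normoxia and constant hypoxia and at 0.25 and 0.33 in intermittent hypoxia.

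The chaperonin subunits had the highest class median in every condition, so this rank was not particular to constant hypoxia. The median of their array medians was 0.08 in normoxia, 0.28 in constant hypoxia and 0.09 in intermittent hypoxia. Cct3 read 0.07 to 0.61 on those 6 arrays (median 0.30), -0.34 to 0.38 in normoxia and -0.37 to 1.01 in intermittent hypoxia, and its constant hypoxia mean of 0.33 passed (SE 0.10, adjusted p = 0.0447). Cct5 read 0.08 to 0.61 in constant hypoxia and -0.36 to 0.49 in normoxia. Constant hypoxia minus normoxia was positive relative to the median feature for 6 of 6 subunits, with a median of 0.22 over the class against -0.03 over all features, but it was negative for all 6 on the values as deposited, where the median over all features was -0.83. Single differences ran from 0.15 for Cct2 to 0.27 for Cct3, and none passed (lowest adjusted p = 0.598, Cct3).

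Chaperonin ratios varied with intermittent hypoxia mostly through 1 array. On intermittent hypoxia 2 weeks B, Cct3 read 1.01, Cct4 1.63, Cct5 1.05 and Cct8 0.61, but Cct2 read -0.10 and Cct7 0.07. The class median on this array was 0.81, whereas that on array A of the group was 0.06. Array B had the second widest spread of all ratios (SD 0.75). At 4 weeks all 6 subunits were lower in intermittent hypoxia than in normoxia, with a class median of -0.40 against 0.02 over all features, and Cct5 differed by -0.83 (SE 0.33, adjusted p = 0.483). The lowest class median, -0.37, was on intermittent hypoxia 4 weeks B.

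The difference between constant hypoxia and normoxia had no sign shared by the genes of the endoplasmic reticulum. Constant hypoxia minus normoxia was positive for 6 and negative for 6 of the 12 genes, with a median of -0.01 against -0.03 over all features. BiP, encoded by Hspa5, read 0.25 and -0.31 at 1 week, -0.27 and -0.39 at 2 weeks, and -0.06 and 0.13 at 4 weeks of normoxia. In constant hypoxia the values were 0.15 and 0.33, 0.13 and 0.13, and 0.35 and 0.11, and in intermittent hypoxia 0.07 and -0.28, -0.17 and 0.24, and -0.12 and -0.48. It was above 0 on every constant hypoxia array and on 2 of 6 in each of the other conditions, with overlapping ranges. Constant hypoxia minus normoxia was 0.31 (SE 0.14, adjusted p = 0.578), and intermittent minus constant hypoxia was -0.32 (SE 0.14, adjusted p = 0.381).

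Pdia6, a disulfide isomerase of the same compartment, was below 0 on all 5 intermittent hypoxia arrays with a value: -0.36 and -0.14 at 1 week, -1.01 at 2 weeks, and -0.18 and -0.53 at 4 weeks. In constant hypoxia it read -0.10 and -0.12, -0.01 and 0.06, and 0.19 and 0.17, so these arrays lay wholly above the intermittent ones, and in normoxia it ranged from -0.59 to 0.22. The fitted intermittent mean of -0.54 (SE 0.10) passed with an adjusted p of 0.0150. The call was lost without intermittent hypoxia 1 week A or 4 weeks B (highest adjusted p = 0.0558), and without 2 weeks A, the one array of that group with a Pdia6 value and one of those with disagreeing labels, the mean could not be fitted. Intermittent minus constant hypoxia was -0.57 (SE 0.14, adjusted p = 0.186; 0.23 on the values as deposited) and intermittent hypoxia minus normoxia was -0.40 (SE 0.14, adjusted p = 0.966). Its 2 probes had intermittent hypoxia means of -0.17 and -0.71. On the first probe the intermittent (-0.33 to -0.01) and constant hypoxia arrays (-0.07 to 0.21) overlapped.

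Hsp90b1, which shares the promoter element with Hspa5 and Pdia6, read -0.12 to 0.42 on 5 constant hypoxia arrays, -0.37 to 0.01 in normoxia and -0.44 to 0.75 in intermittent hypoxia. Its difference was 0.25 for constant hypoxia minus normoxia (SE 0.16) and 0.14 for intermittent hypoxia minus normoxia (SE 0.15), neither past the threshold (adjusted p = 0.663 and 0.989). Dnajc3, a luminal cochaperone of BiP that carries the element too, was below 0 on 5 of 6 arrays in each condition, with differences of -0.07 and 0.03 from normoxia. The 4 genes with the element did not share a sign of their mean ratio in constant hypoxia.

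Fkbp9, a prolyl isomerase of the endoplasmic reticulum, had the lowest single ratio among the members, -2.86 on constant hypoxia 4 weeks A. Its other constant hypoxia values were -0.16 and -0.31 at 1 week, -1.04 and -0.89 at 2 weeks and -0.89 at 4 weeks, and in normoxia it ran from -1.09 to 0.21. The constant hypoxia mean of -1.03 (SE 0.19) had an adjusted p of 0.0106. Its difference from normoxia was -0.64 (SE 0.27, adjusted p = 0.565) and its difference at 4 weeks was -1.46 (SE 0.47, adjusted p = 0.653). Without array A of that group the mean was -0.70 and the difference over all durations -0.31, and with the running median removed they were -0.12 and -0.12. Fkbp9 was read from 1 probe, number 15062. On constant hypoxia 4 weeks A the higher-numbered probes of Dnajc10, Hspa12a and Dnaja2 (16075, 15456 and 14435) read -2.84, -2.63 and -2.14. The lower-numbered probes of these genes (6539, 957 and 6590) read -0.40, -0.21 and 0.93 there. Other high-numbered member probes on this array were less low. Those of Pdia5 (15411), Fkbp15 (14685) and Hsp90aa1 (14698) read -1.83, -0.80 and -0.32, and that of Cct4 (13741) read 0.44. On the same array Cyp11a1 and Hsd3b1, the 2 of 6 adrenal and fat markers with values, had a median ratio of -2.66; the list's array medians ran from -2.66 to 1.42 in constant hypoxia, -2.02 to 1.04 in normoxia and -0.53 to 1.06 in intermittent hypoxia. Their part in the result was not tested.

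Among the other genes of the compartment, Dnajb9, a BiP cochaperone, was above 0 on all 5 normoxia arrays with a value (0.03 to 0.49) and on 4 of 6 in intermittent hypoxia (-0.36 to 0.13), with a difference of -0.34 (SE 0.14, adjusted p = 0.983). Dnajb11, another BiP cochaperone, differed by 0.32 between constant hypoxia and normoxia (SE 0.16, adjusted p = 0.582). Pdia3 and Pdia4 differed by at most 0.30 in size between any pair of conditions, and neither passed.

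Of the DnaJ genes counted outside the endoplasmic reticulum and mitochondria, Dnajb6, which suppresses aggregation of polyglutamine proteins, had the largest difference between conditions. It read 0.27 to 1.42 on 5 normoxia arrays, -0.47 to 0.24 on 6 constant hypoxia arrays and -0.13 to 0.40 on 4 intermittent hypoxia arrays, and the normoxia and constant hypoxia arrays did not overlap. The normoxia mean was 0.69 (SE 0.16, adjusted p = 0.0473) and constant hypoxia minus normoxia was -0.83 (SE 0.22, adjusted p = 0.456). The gene's 2 probes were read on different arrays. One had values on 3 normoxia arrays (0.69 to 1.42), 4 constant hypoxia arrays (-0.23 to 0.62) and no intermittent array, and the other on 3 normoxia arrays (-0.35 to 0.71), 5 constant hypoxia arrays (-0.80 to 0.05) and 4 intermittent hypoxia arrays. On each probe the mean was lower in constant hypoxia than in normoxia (0.20 against 1.05, and -0.34 against 0.21), and the comparison with intermittent hypoxia rests in part on different probes.

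Dnajc2, a ribosome-associated cochaperone, was above 0 on all constant hypoxia arrays (0.05 to 1.16, median 0.30) and on 1 of 6 in intermittent hypoxia (-0.55 to 0.22, median -0.21), while normoxia ranged from -0.35 to 0.98. The constant hypoxia mean was 0.46 (SE 0.12, adjusted p = 0.0305), and intermittent minus constant hypoxia was -0.69 (SE 0.18, adjusted p = 0.195; 0.098 on the values as deposited). In normoxia it read -0.35 and -0.13 at 1 week and 0.16 and 0.98 at 4 weeks, a change of 0.81 (SE 0.31, adjusted p = 0.368). Dnaja1, the main cytosolic partner of Hspa8, differed by 0.22 between constant hypoxia and normoxia (SE 0.15) and Dnajb1, the heat-inducible one, by -0.02 (SE 0.24). Dnajb1 spanned -1.01 to 0.71 over the arrays, with no shared sign in any condition.

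No mitochondrial chaperone passed the test between conditions. Hspd1 and Hspe1, which form the folding chamber of the matrix and whose promoter windows both hold heat shock elements, differed from normoxia by 0.15 (SE 0.13) and 0.11 (SE 0.16) in constant hypoxia and by 0.11 (SE 0.13) and 0.09 (SE 0.14) in intermittent hypoxia. Hspa9, the matrix Hsp70, ranged from -0.74 to 1.11 in intermittent hypoxia, with both extremes on array B, of 4 and of 2 weeks. Its 4-week difference from normoxia was -0.96 (SE 0.39, adjusted p = 0.494). Dnajc30 is a protein of the inner mitochondrial membrane, although the grouping by symbol counted it among the other DnaJ genes. It was called in the constant hypoxia mean, with 5 of 6 arrays below 0 (-1.14 to 0.10; mean -0.48, SE 0.14, adjusted p = 0.0403), and with the running median removed its mean was 0.11. In normoxia it was also below 0 on 5 of 6 arrays (-0.84 to 0.12).

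The FKBP genes outside the endoplasmic reticulum include the Hsp90 cochaperones Fkbp4 and Fkbp5. Fkbp4 kept within -0.07 to 0.15 in constant hypoxia and -0.04 to 0.19 in intermittent hypoxia but ran from -0.76 to 0.23 in normoxia, so that its differences of 0.24 and 0.25 from normoxia (SE 0.12 for both) did not pass (adjusted p = 0.582 and 0.983). Fkbp8, an anchored prolyl isomerase of the mitochondrial surface, followed the same course: -0.04 to 0.30, -0.03 to 0.26 and -0.97 to 0.54. In both genes the low normoxia values were those at 2 weeks, -0.38 and -0.76 for Fkbp4 and -0.51 and -0.97 for Fkbp8. Fkbp3, a nuclear prolyl isomerase, was below 0 on all constant hypoxia arrays (-0.77 to -0.01), with a mean of -0.41 (SE 0.11, adjusted p = 0.0284), on all intermittent hypoxia arrays (-0.48 to -0.15) and on 5 of 6 normoxia arrays (-0.61 to 0.59, median -0.40). Fkbp5, a glucocorticoid target, read 1.00 and 0.57 at 4 weeks of constant hypoxia and between -0.53 and 0.35 on all its other arrays; that change from 1 week was 1.01 (SE 0.28, adjusted p = 0.503).

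Between conditions no member passed the test. For constant hypoxia minus normoxia limma called 0 of 52 members (background: 0% of features) and 6 had an unadjusted p under 0.05, where 8.61% of all features did. For intermittent hypoxia minus normoxia it called 0 of 48 (background: 0%) with 4 at an unadjusted p under 0.05 (4.69% of features), and for intermittent minus constant hypoxia 0 of 49 (background: 0.0299%) with 7 at that level (12.6% of features). Over the members the medians of these differences were 0.13, 0.06 and -0.04, against -0.03, 0.01 and 0.04 over all features. With single arrays left out the members' medians ran from 0.070 to 0.15, from 0.025 to 0.12 and from -0.12 to 0.0009. Each condition enters 2 of these 3 comparisons, so they share arrays and are not independent.

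Single arrays changed these counts. Without constant hypoxia 4 weeks B, Fkbp9 and Dnajb6 passed for constant hypoxia minus normoxia (-0.97 and -0.89), and Fkbp9, Dnajc10, Dnajc2, Hspa12a and Pdia6 passed for intermittent minus constant hypoxia. These were 2 of 49 and 5 of 46 members, where 8.65% and 11.6% of features passed. That group then rests on array A alone, the array of widest spread. With the remaining arrays left out in turn no member passed in any of the 3 comparisons.

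Arrays of one condition lay wholly apart from those of another for few members, chosen here after their values were seen. Of 54 genes, Dnajc8 was higher and Dnajb6 lower on all constant hypoxia than on all normoxia arrays (1.16% of features were apart), and none of 53 was apart between intermittent hypoxia and normoxia (0.923% of features). Between the regimes 2 of 54 were apart, Dnajc17 higher and Pdia6 lower in intermittent hypoxia (2.14% of features). Dnajc8 read 0.12 to 0.45 in constant hypoxia and -0.62 to 0.10 in normoxia, and Dnajc17 0.25 to 0.29 on 3 intermittent arrays and -0.64 to 0.14 in constant hypoxia.

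By duration, no member was called for constant hypoxia minus normoxia at 1, 2 or 4 weeks, where limma called 0.0657%, 0.063% and 0.0222% of features. Unadjusted p was under 0.05 for 4 of 55, 7 of 53 and 5 of 54 members, against 6.53%, 10.3% and 7.44% of features. For intermittent hypoxia minus normoxia the counts called were 0 at each time (background: 0%, 0.162% and 0%), and those under an unadjusted 0.05 were 1 of 54, 12 of 49 and 7 of 53, against 4.56%, 14% and 9.48%. The 12 at 2 weeks included Cct3 (0.87), Hsp90aa1 (0.95), Hsph1 (0.57), Hspa8 (0.96) and Hsp90b1 (0.66) on the positive side and Pdia6 (-0.66) on the negative side.

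This 2-week comparison turned on the choice of array. Without intermittent hypoxia 2 weeks A, 8 of 44 members and 13.9% of features passed, among them Cct3 (1.24, adjusted p = 0.0100), Cct4, Cct5, Hsp90aa1, Hsp90b1 and Hspa9, all from array B alone, and without array B none passed.

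At 4 weeks the members were lower in intermittent hypoxia than in normoxia for 35 of 53, with a median of -0.21 against 0.02 over all features. The median was -0.073 without normoxia 4 weeks B and -0.096 without intermittent hypoxia 4 weeks B.

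**Figure D3:**
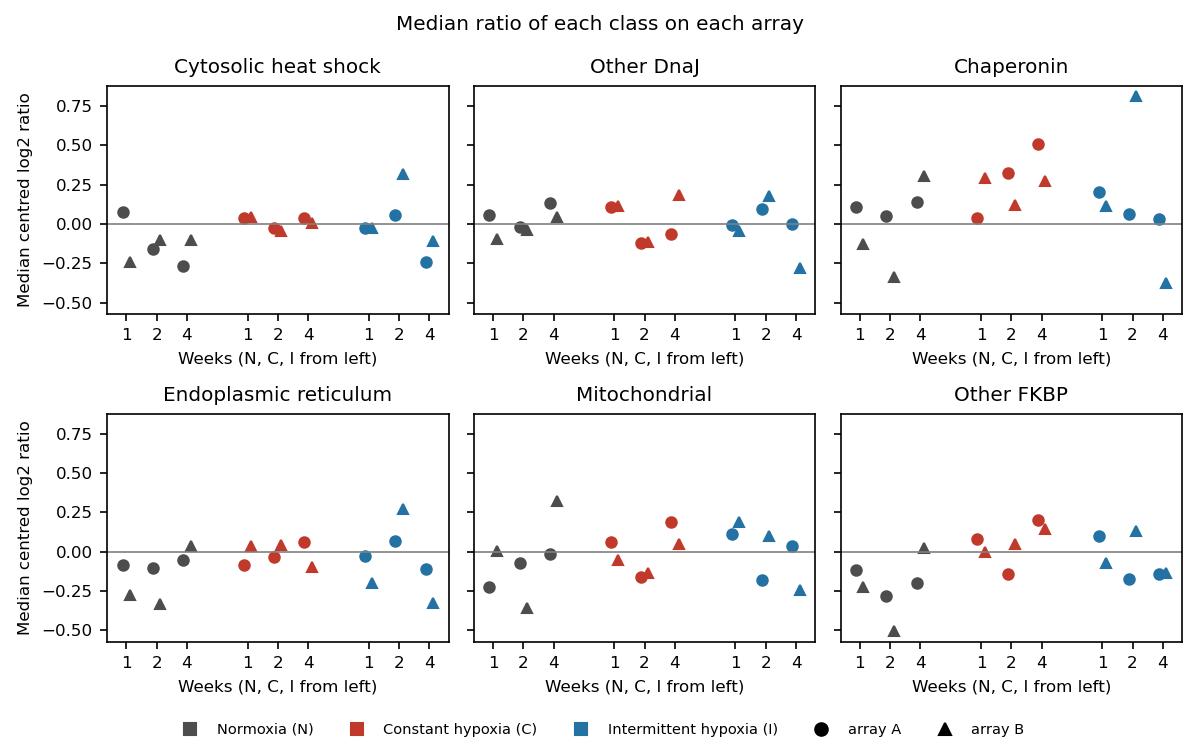
Median centred log2 ratio of each of the 6 classes (panels, vertical axis) on each array, by condition and weeks, with circles for arrays A and triangles for arrays B. Chaperonin medians are above 0 on all constant hypoxia arrays (0.04 to 0.51) and reach 0.81 on intermittent hypoxia 2 weeks B.

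Over the weeks in room air, 39 of 54 members had a higher ratio at 4 weeks than at 1 week, with a median of 0.13 against -0.02 over all features. The change was positive for 11 of 12 endoplasmic reticulum genes (median 0.22), 6 of 6 chaperonin genes (median 0.21) and 5 of 10 cytosolic heat shock genes (median -0.03). With only genes measured on at least 15 arrays and in every group, these counts were 8 of 11, 5 of 6 and 4 of 9. All 6 chaperonin genes stayed under this filter, which also resets the median of each array. The sign of a small change, such as 0.06 for Cct8, thus depends on where 0 is set. No member was called by limma (background: 0%; unadjusted p under 0.05 for 10.8% of features and for 4 members, Hspb1, Dnajc2, Pdia5 and Dnajc11). Pdia5, another disulfide isomerase, read -0.70 and -0.25 at 1 week and -0.04 and 0.83 at 4 weeks, a change of 0.87 (SE 0.35, adjusted p = 0.396).

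In intermittent hypoxia the same change was negative for 32 of 53 members (median -0.08) and for 6 of 6 chaperonin genes (median -0.26), and in constant hypoxia it was positive for 29 of 55 (median 0.05). Neither held a called member (background: 0% in both), and 0 and 6 had an unadjusted p under 0.05, against 4.17% and 9.29% of features. The difference of the change between intermittent hypoxia and normoxia was negative for 39 of 53 members, with a median of -0.26 against 0.01 over all features, and none was called (background: 0%; 4 members and 9.55% of features under an unadjusted 0.05). For constant hypoxia it was negative for 37 of 54, with a median of -0.08, and none was called (background: 0%; 3 members and 5.06% of features).

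Probes of one gene often gave different signs. Of 19 genes with at least 2 probes that gave a constant hypoxia minus normoxia difference, 11 had 1 sign in all probes, among them Hsp90aa1, Hspa5 (3 probes, 0.20 to 0.36), Cct3 (5 probes, 0.11 to 0.46) and Fkbp4 (3 probes, 0.05 to 0.34), and 8 had both signs. Cct7 ran from -0.17 to 0.46 over 3 probes, and Dnaja1 from -0.11 to 0.40 over 4.

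Genes of the same pathways outside the symbol rule were taken from a list of 62, of which 40 had enough values. In the mean ratio of constant hypoxia 8 of 39 were called (background: 14% of features), Clpp and Edem1 above 0 and Bag5, P4hb, Pfdn1, Serpinh1, St13 and Xbp1 below 0. Pfdn1, a subunit of the prefoldin that hands actin to the chaperonin, had the lowest of these means (-1.35, SE 0.25, adjusted p = 0.0105). P4hb, the founding disulfide isomerase, was at -0.79 (SE 0.13, adjusted p = 0.00767) in constant and at -0.47 (SE 0.13, adjusted p = 0.0455) in intermittent hypoxia, and Serpinh1, the collagen chaperone, at -0.62 (SE 0.14, adjusted p = 0.0163) in constant hypoxia. In intermittent hypoxia 2 of 35 were called (background: 7.6%), P4hb and, above 0, Ero1a (0.86, SE 0.16, adjusted p = 0.0176), the oxidase that recharges disulfide isomerases. None of the list passed for a difference between conditions: limma called 0 of 37, 0 of 34 and 0 of 34 for constant hypoxia minus normoxia, intermittent hypoxia minus normoxia and intermittent minus constant hypoxia, and 5, 1 and 3 had an unadjusted p under 0.05, as had 8.61%, 4.69% and 12.6% of features.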

How the data were processed

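For each array the authors deposited log2 ratios of 16128 probes, with empty cells for part of them; that the log base is 2 was checked on the values. How background was corrected, how ratios were normalized and filtered, and which channel is the numerator: not given in the sources used here. Probes were named through the platform's annotation: 9604 had 1 symbol, 213 several and 6311 none. Probes of 1 symbol were averaged per array, features with values on at least 9 of 18 arrays were kept, and the median of each array was then set to 0. Differences were tested two-sided with limma 3.58.1 in R 4.3.3 (lmFit on 9 group means of 2 arrays, eBayes without trend), adjusted by Benjamini-Hochberg over all features tested, threshold 0.05; a fitted condition mean is the mean of its 3 group means, and comparisons with an empty group were not fitted. The script was tested on simulated data. Precision is limited by the number of arrays.

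The members, gene lists and tests were chosen with earlier results of these data known. Named genes are members past the threshold in any comparison, the 3 with the smallest p in each direction of the main comparisons, a fixed set of well-known folding genes, and listed pathway genes past the threshold. Alternatives were centring, a running median over probe numbers, scaling, a stricter filter, single probes, an additive model, robust moderation, a replicate block and arrays left out. The scaling used limma's normalizeMedianAbsValues. Leaving out both arrays of widest spread was added after seeing the data. In the main fit the letters A and B were not used to pair the arrays.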

Additional observations from a re-analysis of the deposited data

How the results depend on the processing

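With a replicate block on the letters A and B, limma called 0 members in normoxia, 9 in constant and 1 in intermittent hypoxia, and 0 in every difference (2.47%, 14.1% and 6.28% of features for the 3 means). Over 36 pairs of groups the deviations of same-lettered arrays correlated at -0.349 to 0.423, and 7 were above 0.1. The correlations had no common sign, so the main fit did not pair arrays by letter. They cannot show whether some of the groups shared a batch.

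Values as deposited, which keep the shift of the constant hypoxia arrays, called 0 members in the normoxia mean and 55 in the constant hypoxia mean, and 48 for constant hypoxia minus normoxia (median -0.65), 42 for intermittent minus constant hypoxia (0.73), and 38 and 46 for constant hypoxia minus normoxia at 1 and 4 weeks (-0.89 and -1.08; at 2 weeks -0.19). The shares of all features called were then 2.67%, 99%, 96.9%, 94.2%, 80.7% and 88.2%. The median change from 1 to 4 weeks in normoxia was then 0.25, and its difference in intermittent hypoxia -0.38. Every member above 0 for constant hypoxia minus normoxia, and every one below 0 for intermittent minus constant hypoxia, changed sign in these values. Among the genes named, the sign turned and the test was passed in one of both settings for the constant hypoxia means of Cct3 (-0.46), Dnajc2 (-0.33) and Hsph1 (-0.49) and for intermittent minus constant hypoxia of Hspa5 (0.46). For constant hypoxia minus normoxia this held for Cct2 (-0.65), Cct3 (-0.54), Cct5 (-0.59), Cct7 (-0.56), Cct8 (-0.59), Dnaja1 (-0.59), Dnajb11 (-0.49), Fkbp1a (-0.61), Fkbp4 (-0.57), Fkbp5 (-0.45), Fkbp8 (-0.49), Hsp90b1 (-0.52), Hspa4 (-0.59), Hspa5 (-0.50), Hspa9 (-0.48), Hspd1 (-0.65), Hspe1 (-0.65), Hsph1 (-0.57), Pdia3 (-0.80), Pdia4 (-0.62) and Pdia6 (-0.64). The sign turned without passing the test for Cct4 (-0.60), Hsp90aa1 (-0.37) and Hspa8 (-0.19) in that comparison, and for intermittent minus constant hypoxia of Pdia6 (0.23) and Dnajc2 (0.098). Centring removes only a shift that moves every feature of an array alike. Whether the footing of the constant hypoxia arrays is such a shift was not tested.

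The running median left 1 call in constant hypoxia (0.654% of features) and turned Dnajc30 to 0.11. The filter on 15 arrays left 1 call in normoxia, and single probes left 0 in intermittent hypoxia. Without both arrays of disagreeing labels the calls were 5 in normoxia, 5 in constant and 3 in intermittent hypoxia, and 10 for intermittent hypoxia minus normoxia at 2 weeks (median 0.38), where 11.7%, 8.77%, 27.7% and 17.2% of features were called; without both arrays of widest spread they were 5 in normoxia (11.7%) and 5 in constant hypoxia (8.77%). The causes were not tested.

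With single arrays left out, calls ranged from 0 to 4 in normoxia, 0 to 11 in constant and 0 to 2 in intermittent hypoxia, and the share of features from 0.367% to 8.43%, 0.268% to 24% and 1.18% to 20.6%. They ranged from 0 to 2 for constant hypoxia minus normoxia, 0 to 5 for intermittent minus constant hypoxia, 0 to 3 for constant hypoxia minus normoxia at 4 weeks, 0 to 4 for the change in constant hypoxia and 0 to 3 for its difference from normoxia; in each of these the calls came without constant hypoxia 4 weeks B, where 8.65%, 11.6%, 11.7%, 12.8% and 8.08% of features passed. For intermittent hypoxia minus normoxia at 2 weeks they ranged from 0 to 8 (13.9% of features at 8), with medians from 0.10 to 0.38. Medians ran from -0.30 to -0.073 for that comparison at 4 weeks and from 0.089 to 0.27 (without normoxia 4 weeks A) for the change in normoxia. The difference of this change ran from -0.34 to -0.10 (without intermittent hypoxia 4 weeks B) in intermittent hypoxia and from -0.25 (without normoxia 4 weeks A) to -0.017 in constant hypoxia. A group left with 1 array was assumed to vary like the others. The remaining comparisons called 0 in each case.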
